A study of Homo sapiens with 10 samples.

Results

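CUT&RUN peaks of the chromatin proteins BRD9 and SMARCB1 were examined at 7 genes that control cell cycle arrest: the inhibitors CDKN1A, CDKN2A, CDKN2B and CDKN1C, the kinase and cyclin pair CDK6 and CCND1, and MDM2, the negative regulator of p53. The genes occupy 6 loci, because CDKN2A and CDKN2B are neighbours. A peak was a member when it touched the gene interval in hg19 or the 50 kb on either side. By this rule 452 of the 543439 peaks in 8 lists were members, 147 of them BRD9 peaks and 305 SMARCB1 peaks. All samples were of the rhabdoid tumour line G401, with the genotype SMARCB1(-/-), in which doxycycline induced either GFP or SMARCB1. BRD9 was profiled with a rabbit polyclonal antibody in 3 GFP-induced and 3 SMARCB1-induced samples, and SMARCB1 with a rabbit monoclonal antibody in 2 SMARCB1-induced samples. The 2 remaining samples of the series, SMARCB1 in GFP-induced cells and IgG in SMARCB1-induced cells, had no peak list and were not analysed on their own here. The labels do not say whether replicates were separate cultures, so p-values measure only the spread between these samples.

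Passage from G1 into S phase is driven by cyclin D with CDK4 or CDK6, which phosphorylates the retinoblastoma protein. The CDKN2 proteins bind CDK4 and CDK6 directly, whereas p21 (CDKN1A) and p57 (CDKN1C) bind cyclin and kinase complexes more broadly, and MDM2 keeps p53, an activator of CDKN1A, low. SMARCB1 is a core subunit of the canonical SWI/SNF chromatin remodellers, BRD9 belongs to the non-canonical form that lacks SMARCB1, and re-expression of SMARCB1 in rhabdoid cells is known to halt the cycle with raised CDKN2A and CDKN1A.

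Promoter sequences are shown for CDKN1A, CDKN2B, CDK6 and MDM2, which had a BRD9 or SMARCB1 peak at the gene start. The start of an entry was not matched to that start, so the sequences are not shown to lie under the calls. RefSeq promoter entries (GRCh38.p14) were matched for 5 of the 7 members, 10 entries in all. CCND1 and CDKN1C had no entry. Each sequence runs 5′ to 3′ along the gene from 250 bases before the start to 50 bases after it. Capitals mark the SP1 box GGGCGG on either strand and the AP-1 element TGANTCA. The entries lie on chromosome 6 from 36678464 to 36678763 (CDKN1A, plus strand), chromosome 9 from 22009256 to 22009555 (CDKN2B, minus strand) and chromosome 7 from 92836524 to 92836823 (CDK6, minus strand). The first MDM2 entry lies on chromosome 12 from 68807922 to 68808221 and the third, further into the gene, from 68808767 to 68809066 (both plus strand). These coordinates belong to another build than the peaks and were not set against them.

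CDKN1A: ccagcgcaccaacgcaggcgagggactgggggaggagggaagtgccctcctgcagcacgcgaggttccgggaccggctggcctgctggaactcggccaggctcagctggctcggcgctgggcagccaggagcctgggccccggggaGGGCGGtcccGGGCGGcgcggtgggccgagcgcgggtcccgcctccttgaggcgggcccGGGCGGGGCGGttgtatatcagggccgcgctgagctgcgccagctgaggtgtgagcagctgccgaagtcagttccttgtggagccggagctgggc
CDKN2B: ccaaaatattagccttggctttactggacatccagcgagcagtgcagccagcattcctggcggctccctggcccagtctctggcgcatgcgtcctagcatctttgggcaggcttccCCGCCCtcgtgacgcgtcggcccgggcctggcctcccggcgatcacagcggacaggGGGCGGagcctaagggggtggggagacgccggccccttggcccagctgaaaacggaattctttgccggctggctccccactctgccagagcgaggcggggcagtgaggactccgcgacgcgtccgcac
CDK6, entry 1: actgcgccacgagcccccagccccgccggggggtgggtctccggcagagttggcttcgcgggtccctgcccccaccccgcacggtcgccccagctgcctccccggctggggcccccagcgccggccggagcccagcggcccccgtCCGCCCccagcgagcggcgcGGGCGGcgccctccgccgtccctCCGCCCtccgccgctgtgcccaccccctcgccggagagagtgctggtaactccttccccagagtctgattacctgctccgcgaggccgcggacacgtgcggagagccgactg
MDM2, entry 1: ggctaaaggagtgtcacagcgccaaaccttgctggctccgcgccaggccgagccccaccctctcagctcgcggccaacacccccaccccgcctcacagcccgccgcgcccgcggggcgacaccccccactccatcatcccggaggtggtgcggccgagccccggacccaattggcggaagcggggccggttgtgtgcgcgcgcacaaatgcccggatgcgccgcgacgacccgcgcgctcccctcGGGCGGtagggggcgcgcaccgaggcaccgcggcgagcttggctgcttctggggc
MDM2, entry 3: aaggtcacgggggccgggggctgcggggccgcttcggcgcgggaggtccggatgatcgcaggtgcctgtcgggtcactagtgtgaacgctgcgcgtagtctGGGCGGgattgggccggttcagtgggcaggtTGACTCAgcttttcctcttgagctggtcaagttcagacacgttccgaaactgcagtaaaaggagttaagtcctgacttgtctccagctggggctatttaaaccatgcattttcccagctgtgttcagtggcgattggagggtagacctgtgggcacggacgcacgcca

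The CDKN1A promoter held 4 SP1 boxes, beginning at -104, -94, -45 and -40 from the start, the last pair overlapping by a base. CDKN2B held 2 (-134 and -78), CDK6 held 3 (-105, -85 and -62) and the first MDM2 entry held 1 (-5). The third MDM2 entry held 1 SP1 box (-149) and 1 AP-1 element (-118). Of 35116 RefSeq promoters of the same length, 45.0% hold an SP1 box and 7.71% an AP-1 element, so the first is a common feature. The TATA box TATAAA (11.5% of all promoters) and the p53 decamer (6.63%), of which a full p53 response element holds a pair, were also searched on both strands. Neither had an exact match in the 10 entries, which says only that these letters are not in the windows: elements that depart from the decamer were not searched. A match is a description of the sequence, not a site of binding.

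The BRD9 libraries held 10.1 to 13.9 M reads, and the SMARCB1 libraries 59.7 and 64.2 M. A BRD9 peak held at least 9 or 10 reads, depending on the list, with medians of 18 to 23. Density is in RPKM: reads divided by peak length in kb and by the library's M reads. Each list gives the same for a control library, which was 1 library for all BRD9 lists and another for both SMARCB1 lists. The SMARCB1 lists name theirs as a GFP negative control. Whether it is the sample of SMARCB1 in GFP-induced cells was not established here. A list gives no value where it has no peak, so a missing call leaves the level there unknown. The median control density under BRD9 peaks of the whole lists was 0.288, 0.580 and 0.395 RPKM in GFP-induced cells and 0.649, 0.799 and 0.778 in SMARCB1-induced cells. These groups do not overlap, and the part of this difference in the results below was not tested. Intervals on counts are not given, and reads without molecular identifiers are not independent molecules.

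The first comparison asked whether BRD9 peaks at the arrest genes differ once SMARCB1 is expressed. The CDK6 locus had 3.27 times as many BRD9 peaks in SMARCB1-induced as in GFP-induced cells, and the MDM2 locus 3 times as many. The CDKN2A and CDKN2B locus had BRD9 peaks in the SMARCB1-induced lists and no peak in the 3 GFP-induced lists. At CDKN1A the length under BRD9 peaks was lower, at 0.405 of the GFP value. At CDKN1C and CCND1 the groups overlapped in both measures.

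Peak number and covered length were tested at each locus with a two-sided exact permutation test of 3 lists against 3. Its smallest possible p is 0.1, so a difference can be described as free of overlap but cannot pass 0.05. The groups did not overlap in 7 of the 12 tests, 6 of them higher and 1 lower after SMARCB1 induction, at 4 of the 6 loci. Such separation was common for the higher direction, in 20.3 to 32.3% of genome windows as wide as the locus. For the lower one it was in 7.42%. Each of the 7 had p = 0.1 by the exact permutation test and 0.171 after Benjamini-Hochberg adjustment over the 12.

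**Figure D1:**
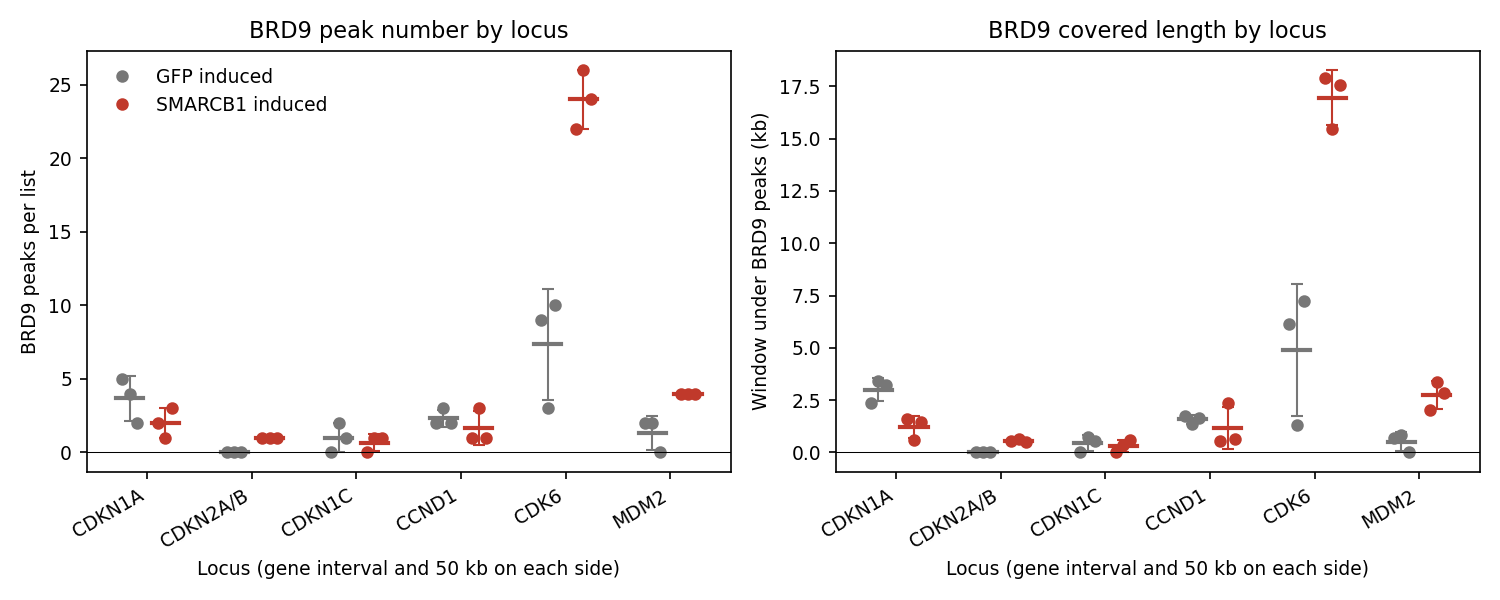
BRD9 peaks per list (left) and kb of window under BRD9 peaks (right) at the 6 loci, 1 point per list, grey for GFP-induced and red for SMARCB1-induced cells; bars are the mean and SD of 3 lists. At CDK6 the 3 SMARCB1-induced lists hold 22 to 26 peaks and the 3 GFP-induced lists 3 to 10.

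CDKN1A encodes p21, the general inhibitor of cyclin-dependent kinases and a classic p53 target. Its window (chr6:36594237-36705116) held 5, 4 and 2 BRD9 peaks in GFP-induced cells and 2, 1 and 3 in SMARCB1-induced cells. The peak numbers overlapped between groups (3.67 ± 1.53 against 2 ± 1, SD, n = 3 each; exact permutation p = 0.3, adjusted p = 0.45). Without GFP replicate 3 they no longer overlapped (4.5 against 2 peaks, exact permutation p = 0.2). The covered length was 2382, 3432 and 3206 bp in GFP-induced cells. It was 1583, 613 and 1456 bp in SMARCB1-induced cells. All 3 SMARCB1-induced lists were below all 3 GFP-induced lists, at 1217 ± 527 against 3007 ± 553 bp (SD, n = 3 each; exact permutation p = 0.1, adjusted p = 0.171). Among 16665 genome windows of this width, 7.42% were separated in the same direction, and 3.71% of the windows had a difference at least as large.

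Of the 11 merged BRD9 regions in the CDKN1A window, 6 lay away from the gene, 5 of them centred between -22.9 and -9.6 kb from the start and the other at 57.4 kb, each called in 1 list. The remaining 5 lay toward the ends of the gene. The region called most often was at the 3′ end, chr6:36654533-36658160, from within the gene interval to beyond its end. It was called in 3 of 3 GFP-induced lists, with 44, 111 and 121 reads and densities of 3.35, 3.43 and 3.98 RPKM. In SMARCB1-induced cells it was called in replicates 1 and 3, with 37 and 28 reads at 2.84 and 2.55 RPKM, and not in replicate 2. These densities are over different bases of the merged region. The SMARCB1-induced peaks were chr6:36657087-36658160 and chr6:36657126-36657917. The peaks of GFP-induced replicate 1 in the region, chr6:36654585-36655026 and chr6:36655732-36656526, did not touch them. The lower values in the SMARCB1-induced lists therefore do not compare the level at 1 site. At the 5′ end, by contrast, BRD9 peaks were present in SMARCB1-induced lists alone. Replicate 3 had peaks at chr6:36644176-36644451 (14 reads, 3.66 RPKM) and chr6:36644692-36645082 (25 reads, 4.61 RPKM), and replicate 2 at chr6:36645378-36645991 (28 reads, 4.51 RPKM). No 2 of these peaks overlapped, so the 5′ end is not 1 reproduced site. The control library was dense under them, at 3.30, 2.11 and 2.40 RPKM, against a mean of 0.784 RPKM at the 3′ region. In the whole window 10 of the 11 regions were called in 1 list only, against 62.9% of the genome's regions. The 4 called in SMARCB1-induced lists alone all touched a SMARCB1 region, meaning one called in both SMARCB1 replicates. Of the 6 called in GFP-induced lists alone, 2 did. The genome shares were 59.2% and 13.6%, and SMARCB1 peaks cover 19.5% and 26.4% of this window.

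CDKN2A and CDKN2B encode the INK4 inhibitors of CDK4 and CDK6, and CDKN2A also encodes ARF, which restrains MDM2. No GFP-induced list had a BRD9 peak in the window (chr9:21917751-22059312). The nearest peaks to the CDKN2B start were 111, 195 and 1168 kb away in the 3 GFP-induced lists. Each SMARCB1-induced list had 1 peak, covering 532, 648 and 502 bp (561 ± 77.1 bp, SD, n = 3; exact permutation p = 0.1, adjusted p = 0.171). The groups overlapped, with a mean of 0.667 peaks in SMARCB1-induced cells and an exact permutation p of 0.4 for both measures, under each of 3 alternatives: peaks at or above the list's median score, equal numbers of top peaks, and a flank of 10 kb. A separation in this direction was common in the genome, since 20.4% of 13905 windows of this width had it for peak number and 26.6% for covered length. Replicates 2 and 3 placed their peak at the CDKN2B start, at chr9:22008824-22009472 (29 reads, 4.41 RPKM) and chr9:22009124-22009626 (18 reads, 2.58 RPKM). The control density in these peaks was 0.534 and 0.775 RPKM. The replicate 1 peak (22 reads, chr9:21919548-21920080) lay 89.2 kb from that start and did not touch a SMARCB1 region called in both replicates. SMARCB1 replicate 2 alone had a peak over it, chr9:21919376-21920101, with 50 reads at 1.16 RPKM. Thus 2 of the 3 BRD9 peaks share a site.

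CDKN1C encodes p57, an imprinted inhibitor of cyclin-dependent kinases. BRD9 peaks in its window (chr11:2854448-2956995) numbered 0, 2 and 1 in GFP-induced cells and 0, 1 and 1 in SMARCB1-induced cells. Covered length was 431 ± 385 bp in GFP-induced and 308 ± 290 bp in SMARCB1-induced cells (SD, n = 3 each; exact permutation p = 0.8, adjusted p = 0.873). The groups overlapped, and peak number gave an exact permutation p of 1. The direction turned without GFP replicate 2, to a difference of 0.167 peaks and 32.7 bp, and in covered length (30.8 bp) without SMARCB1 replicate 1. The region called more than once, chr11:2909376-2909968 was centred at -2.68 kb, upstream of the gene start. GFP-induced replicates 2 and 3 called it, with 17 and 18 reads at 3.60 and 3.20 RPKM, and no SMARCB1-induced list did. The nearest peak of SMARCB1-induced replicate 2, 11 reads at chr11:2908580-2908928, lay closer to the gene without touching it.

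CDK6, the kinase partner of cyclin D, is the longest of the members, and its window (chr7:92184235-92515941) spans 332 kb. It held 9, 3 and 10 BRD9 peaks in GFP-induced cells and 22, 26 and 24 in SMARCB1-induced cells. Every SMARCB1-induced list was above every GFP-induced list, at 24.0 ± 2.00 against 7.33 ± 3.79 peaks (SD, n = 3 each; exact permutation p = 0.1, adjusted p = 0.171). Covered length was 6137, 1308 and 7234 bp in GFP-induced cells. It was 17881, 15444 and 17570 bp in SMARCB1-induced cells. The means were 4893 ± 3153 and 16965 ± 1326 bp (SD, n = 3 each), 3.47 times as long, with the same exact permutation p of 0.1 and adjusted p of 0.171. GFP-induced replicate 2 was the lowest in both measures.

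Of 7171 genome windows as wide as the CDK6 window, 25.2% were separated in this direction for peak number and 32.3% for covered length. A difference at least as large was less common, in 1.74% of windows for peak number and 2.82% for covered length. BRD9 density within the called peaks overlapped between the groups, at 3.39 ± 0.25 RPKM in GFP-induced and 3.71 ± 0.25 RPKM in SMARCB1-induced cells (SD, n = 3 each). The control library gave 0.628 ± 0.234 and 0.934 ± 0.0852 RPKM in the same peaks. Density over control was thus 5.78 ± 1.52 and 3.98 ± 0.182 (SD, n = 3 each), which also overlapped. The lists were thus separated in the number and length of called peaks and not in the density within them.

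**Figure D2:**
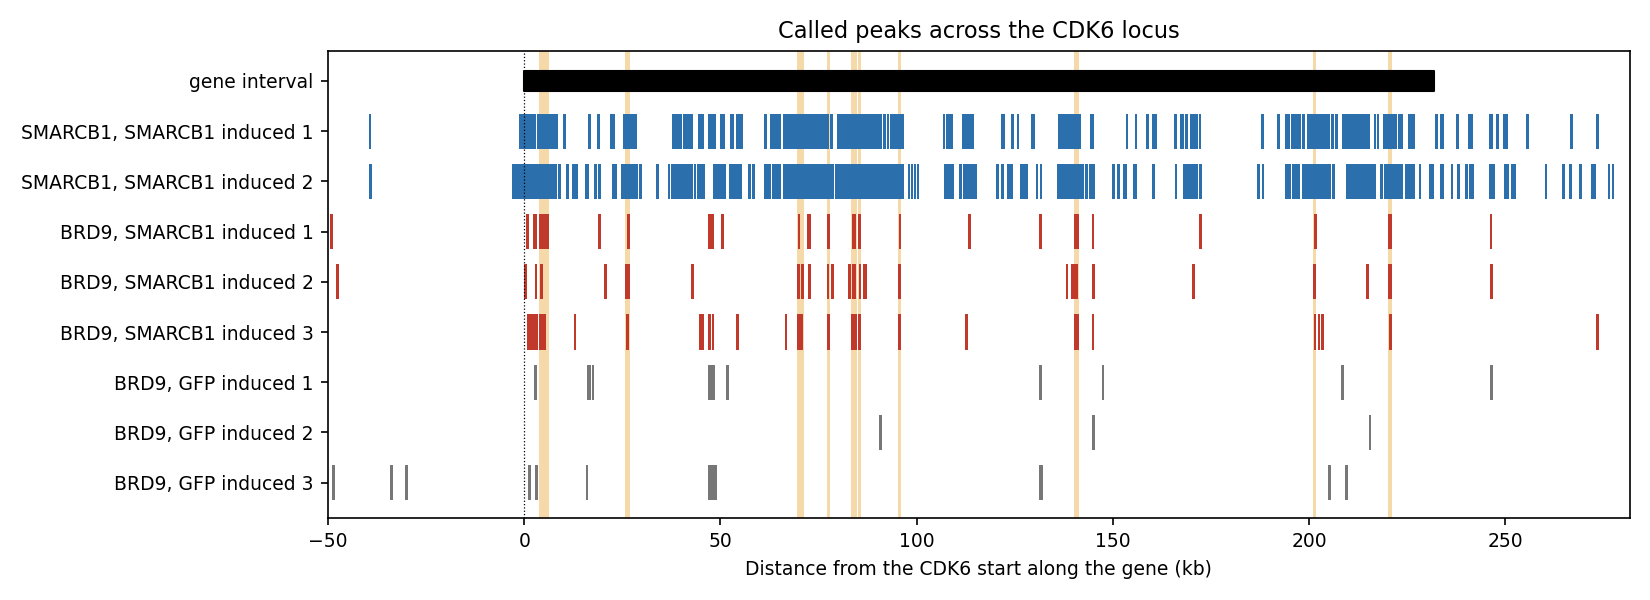
Called peaks across the CDK6 window, 1 row per list, by distance in kb from the gene start along the gene; the black bar is the gene interval and shading marks the 10 BRD9 regions called in all SMARCB1-induced lists and no GFP-induced list. The shaded regions all lie in the gene interval and touch SMARCB1 regions called in both replicates.

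Overlapping peaks of the 6 BRD9 lists were merged, and a region was called gained when 3 of 3 SMARCB1-induced lists and 0 of 3 GFP-induced lists held a peak in it. CDK6 had 10 gained regions among 53 (18.9%), against 6.85% of 119939 merged regions in the genome. All 6 loci had 12 gained among 78, the other 2 being at MDM2, and 0 lost regions, the opposite case, which made up 1.04% of the genome's regions. The map of peaks across CDK6 shows that the 10 gained regions were spread from near the start to near the 3′ end, all of them inside the gene interval. Their widths were 655 to 2450 bp. The authors' peak apices of the 3 lists in a gained region lay within 35 to 459 bp of each other (median 217 bp).

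The gained region with the highest density was chr7:92381168-92382638, 84.0 kb into the gene. It held 59, 64 and 105 reads at 5.23, 6.58 and 5.14 RPKM in the SMARCB1-induced lists. Next came chr7:92324576-92325826, 140.7 kb in, with 79, 55 and 93 reads at 5.84, 5.36 and 5.35 RPKM. The third, chr7:92438883-92440161, 26.4 kb in, held 61, 61 and 55 reads at 5.10, 5.21 and 4.48 RPKM. In these 3 regions every replicate was above the median BRD9 density of its list, which was 3.02 to 3.40 RPKM. The 3 were picked as the densest gained regions, so this position is no separate support for them.

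The gained region nearest to the start, chr7:92459751-92462201, was also the widest, at 4.97 kb into the gene with 101, 38 and 100 reads and 3.93 ± 0.35 RPKM (SD, n = 3). A cluster of 5 gained regions lay between 70.3 and 95.6 kb: besides the densest one, chr7:92394661-92396541 (3.85 ± 1.23 RPKM), chr7:92388126-92388892 (3.74 ± 1.03), chr7:92380084-92381011 (3.82 ± 0.065) and chr7:92370037-92370692 (3.79 ± 0.32; SD, n = 3 each). The replicates differed most at chr7:92394661-92396541, with 5.12, 3.76 and 2.67 RPKM, and least at chr7:92380084-92381011, with 3.75, 3.88 and 3.81 RPKM. At the first the peaks were 483 bp wide in replicate 1, 667 and 749 bp in replicate 2 and 1483 bp in replicate 3. Its densities are thus over unlike widths. Toward the 3′ end were chr7:92264176-92264908, 201.4 kb in, with 17, 22 and 19 reads (3.10 ± 0.19 RPKM), and chr7:92244801-92245801, 220.6 kb in, with 40, 32 and 38 reads (3.57 ± 0.25 RPKM; SD, n = 3 each). The mean control density in the 10 regions was 0.570 to 1.34 RPKM, below the BRD9 density in each. The regions were chosen as called peaks, so this order is no separate support for them.

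**Figure D3:**
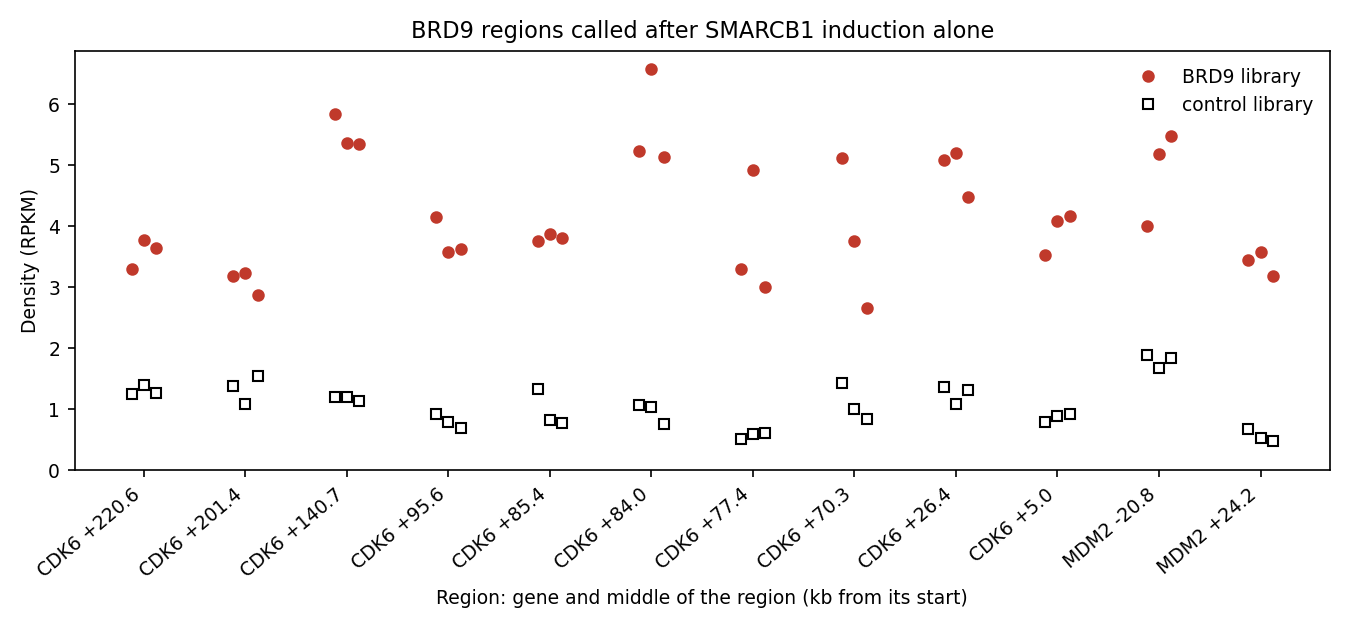
BRD9 density (RPKM, red points, 1 per SMARCB1-induced list) in the 12 gained regions, with the control library over the same peaks (open squares); the labels give the gene and the middle of the region in kb from its start. BRD9 lies above control in each list of each region, and these regions were chosen as called peaks. The mean is highest at 84.0 kb into CDK6 (5.65 RPKM).

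At 3 further CDK6 regions all SMARCB1-induced lists had a call and at least 1 GFP-induced list had one too. The region at the gene start, chr7:92464520-92465942, held 24, 20 and 22 reads at 2.82, 3.01 and 2.82 RPKM in SMARCB1-induced cells. GFP-induced replicate 3 also called it, with 17 reads at 3.46 RPKM. The region chr7:92462551-92463801, 2.77 kb into the gene, was called in 5 lists. Its density was 3.65 and 3.64 RPKM in GFP-induced replicates 1 and 3, and 2.98, 2.67 and 2.19 RPKM in the SMARCB1-induced lists. These values are over peaks of unlike width, 413 and 350 bp in the former and 1050, 481 and 1050 bp in the latter. GFP-induced replicate 2 had no value, so the levels of the groups cannot be compared there. The last, chr7:92320860-92321343, had 3.70 RPKM in GFP-induced replicate 2 and 3.17, 3.06 and 3.06 RPKM in SMARCB1-induced cells. In all 3 regions the density within called peaks was higher in the GFP-induced lists that called them, with reads between 9 and 38 behind each SMARCB1-induced value. GFP-induced lists without a call gave no value, and peak widths differed between lists. The values are therefore not a comparison of BRD9 levels between the groups.

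Of the 53 CDK6 regions, 34 were called in SMARCB1-induced lists alone, 12 in GFP-induced lists alone and 7 in both. A SMARCB1 region touched 31 of the 34 (91.2%) and 6 of the 12 (50%). Over the genome it touched 59.2% of 46070 regions called in SMARCB1-induced lists alone and 13.6% of 51361 called in GFP-induced lists alone, so both shares are higher at CDK6, where SMARCB1 peaks cover 34.3% and 43.6% of the window. Most calls were not repeated, since 35 of the 53 regions were in 1 list only. Over the 6 loci this share was 64.1%, near the 62.9% of the genome's regions.

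CCND1, cyclin D1, partners CDK6 and CDK4. Its window (chr11:69405873-69519242) held 2, 3 and 2 BRD9 peaks in GFP-induced cells and 1, 3 and 1 in SMARCB1-induced cells, which overlapped (exact permutation p = 0.6, adjusted p = 0.72). Covered length was 1738, 1356 and 1625 bp against 529, 2350 and 625 bp, a mean of 1573 ± 196 against 1168 ± 1025 bp (SD, n = 3 each; exact permutation p = 0.4, adjusted p = 0.533). SMARCB1-induced replicate 2 was the highest of the 6 lists and the other two were the lowest, so the groups overlapped. Without that replicate they did not, at 1 against 2.33 peaks and 577 against 1573 bp (exact permutation p = 0.1 for each). The 3 merged regions here were all called in both groups, and all touched a SMARCB1 region. Over the genome 49.3% of 22508 regions called in both groups touched one.

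The more distal CCND1 region, chr11:69450601-69451516, was centred at -4.81 kb from the start and was called in 5 lists. Its density was 3.36, 3.59 and 3.55 RPKM in GFP-induced cells and 3.27 and 3.76 RPKM in SMARCB1-induced replicates 1 and 2. The region chr11:69452863-69454360, at -2.26 kb, was also called in 5 lists, with 41, 28 and 46 reads at 4.29, 5.49 and 3.80 RPKM in GFP-induced cells. SMARCB1-induced replicates 2 and 3 had 45 and 21 reads there at 3.14 and 2.42 RPKM, below each GFP-induced value. The peaks were 899, 421 and 1184 bp wide in GFP-induced and 1413 and 625 bp in SMARCB1-induced lists. The densities are thus over unlike widths and do not show a change in level. The control library was dense in these regions, at means of 1.79 and 1.25 RPKM.

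MDM2 encodes the ubiquitin ligase of p53, whose gene is itself a p53 target through an internal promoter. Its window (chr12:69151971-69289320) held 2, 2 and 0 BRD9 peaks in GFP-induced cells and 4 in each SMARCB1-induced list. All SMARCB1-induced lists were above all GFP-induced lists (4 ± 0 against 1.33 ± 1.15 peaks, SD, n = 3 each; exact permutation p = 0.1, adjusted p = 0.171). Covered length was 691, 842 and 0 bp in GFP-induced cells. It was 2050, 3384 and 2817 bp in SMARCB1-induced cells. The means of 511 ± 449 and 2750 ± 669 bp (SD, n = 3 each) differ 5.38-fold, again with no overlap (exact permutation p = 0.1, adjusted p = 0.171). In the genome 20.3% of 14227 windows of this width were separated in this direction for peak number and 26.5% for covered length, and 12.8% and 11.3% had a difference at least as large.

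The 2 gained MDM2 regions lay on either side of the start. The upstream one, chr12:69180846-69181574, was centred at -20.8 kb from the start, with 30, 38 and 52 reads at 4.01, 5.19 and 5.48 RPKM. The control library had a mean of 1.80 RPKM there, the highest of the 12 gained regions. The intragenic one, chr12:69225726-69226631, lay 24.2 kb into the gene, with 16, 27 and 40 reads at 3.45, 3.58 and 3.18 RPKM over a control of 0.560 RPKM. The start itself, chr12:69201384-69203160, was called in all SMARCB1-induced lists, with 43, 51 and 50 reads at 3.37, 3.38 and 2.93 RPKM. GFP-induced replicate 2 called it too, with 24 reads at 3.92 RPKM over 505 bp. The other GFP-induced lists gave no value there, so the levels of the groups cannot be compared. GFP-induced replicate 3 had no BRD9 peak within 425 kb of the MDM2 start.

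**Figure D4:**
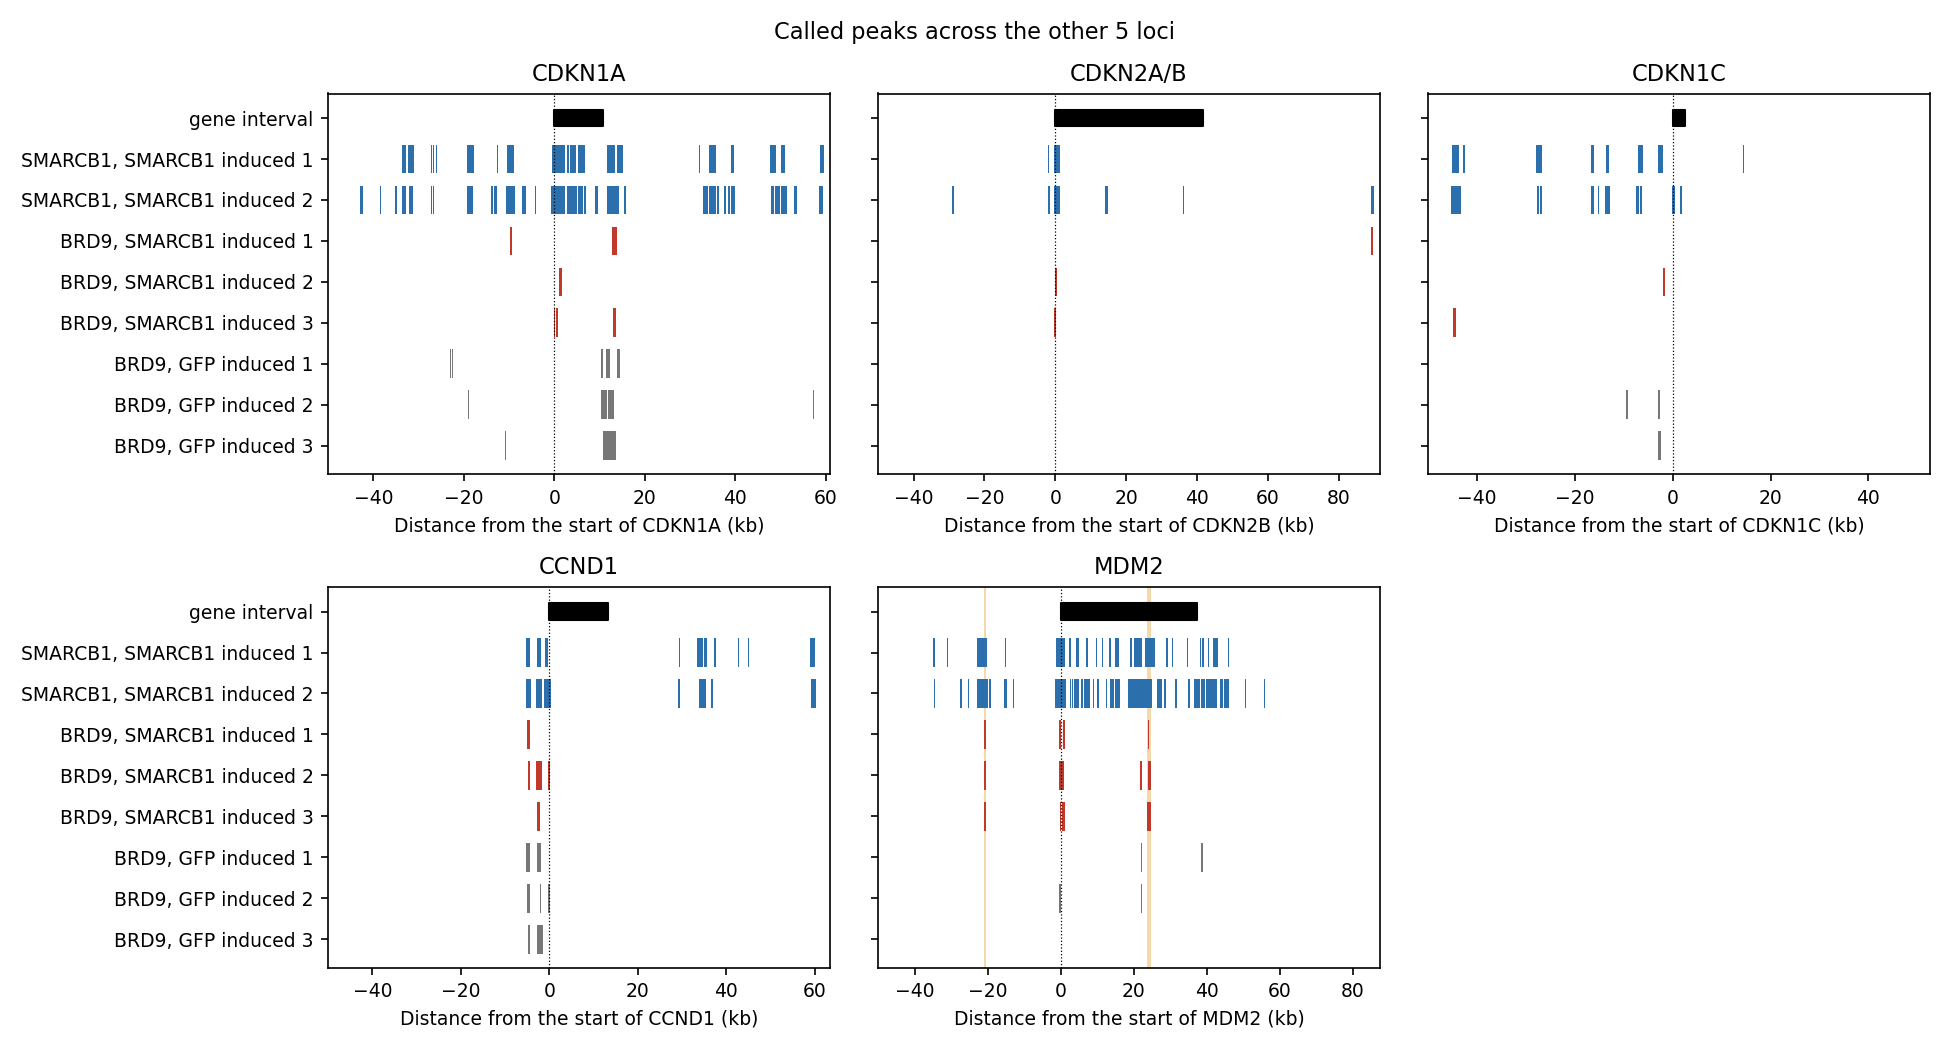
Called peaks at the 5 loci other than CDK6, 1 row per list, by distance in kb from the gene start along the gene (CDKN2B for the CDKN2A and CDKN2B locus); black bars are gene intervals and shading marks gained BRD9 regions. Shading is present at MDM2 alone among the 5, at -20.8 and 24.2 kb, and the CDKN2A and CDKN2B locus has no BRD9 peak in the GFP-induced rows.

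Calls within 1 kb of a gene start were then counted over the 6 loci and 3 lists of each group. Each locus had 1 start, that of CDKN2B at the CDKN2A and CDKN2B locus, so the starts of CDKN2A were not assessed. BRD9 was called at 3 of 18 pairs of locus and list in GFP-induced cells, at 1 list each of CCND1, CDK6 and MDM2. In SMARCB1-induced cells it was called at 10 of 18: all 3 lists at CDK6 and at MDM2, 2 at CDKN2B, and 1 each at CDKN1A and CCND1. The CDKN1C start had no BRD9 call in either group. SMARCB1 itself was called at 11 of 12 pairs, the exception being CDKN1C in replicate 1. These are counts over few lists, described with no test. For scale, 2.44 to 3.32% of all 2 kb tiles of the genome touched a BRD9 peak in the GFP-induced lists, 3.08 to 3.64% in the SMARCB1-induced lists, and 11.1% and 13.7% touched a SMARCB1 peak. Tiles are not gene starts, and the share of all gene starts with a call was not computed here, so nothing particular to these genes can be read from the counts.

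SMARCB1 was then described across the loci in its 2 replicates. SMARCB1 peaks covered 34.3% and 43.6% of the CDK6 window, against 4.90% and 6.44% of the genome, in 74 and 80 peaks. CDKN1A (19.5% and 26.4%) and MDM2 (14.7% and 25.1%) came next and overlapped each other. CCND1 (5.92% and 7.25%) and CDKN1C (6.0% and 6.73%) were near the genome value. The CDKN2A and CDKN2B locus was the lowest, at 1.58% and 3.43%, below the genome value in both replicates.

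Density within the peaks varied less than coverage. It was 1.88 and 1.94 RPKM at CDK6, which was above both replicates of each other locus and above all peaks of the same list (1.75 and 1.84 RPKM). It was 1.49 and 1.56 RPKM at CDKN1A, 1.63 and 1.52 at CDKN2A and CDKN2B, 1.49 and 1.59 at CCND1, and 1.54 and 1.52 at MDM2, and these 4 overlapped. CDKN1C had the lowest density, 1.32 and 1.41 RPKM. The control library gave 0.408 and 0.404 RPKM in the CDK6 peaks and the highest values, 0.775 and 0.765 RPKM, in the CCND1 peaks. With 2 replicates and 1 group no test was made.

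**Figure D5:**
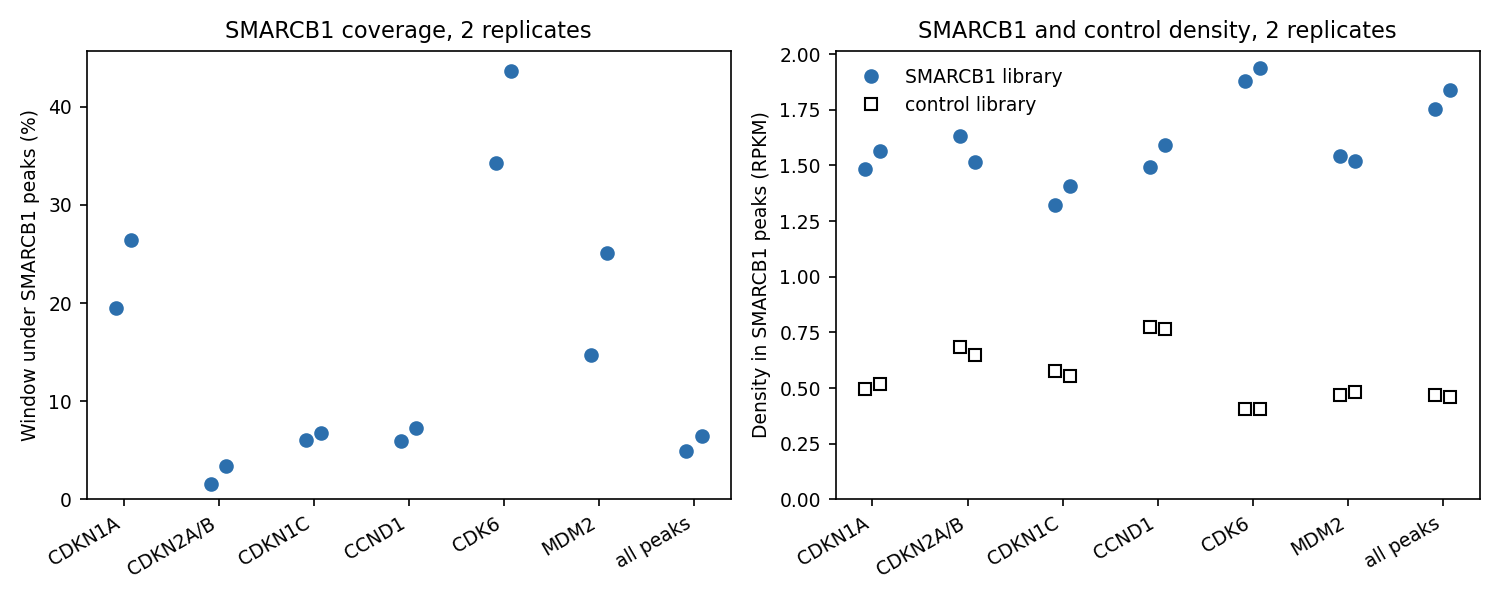
Percent of each window under SMARCB1 peaks (left) and density within SMARCB1 peaks in RPKM (right), 1 point per SMARCB1-induced replicate, with the control library as open squares; the last position gives all peaks of the list. CDK6 has the highest values on both panels, 34.3% and 43.6% covered and 1.88 and 1.94 RPKM.

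SMARCB1 regions, merged from peaks of both replicates, numbered 82 at the loci of 87773 in the genome, where the median density was 1.46 RPKM and the median width 1225 bp. The densest at CDK6, chr7:92260351-92267801, had 2.83 ± 0.17 RPKM (SD, n = 2), above 99.0% of the genome's regions, and holds the gained BRD9 region at 201.4 kb. The region over the CDK6 start, chr7:92456701-92469051, was 12350 bp wide at 1.94 ± 0.13 RPKM (SD, n = 2). The widest, chr7:92369176-92386751, spanned 17575 bp at 2.47 ± 0.16 RPKM (SD, n = 2) and holds 3 of the gained regions. Of the 39 CDK6 regions, the 7 that held a gained BRD9 region had a median density of 2.34 RPKM and a median width of 7450 bp. The 19 with no BRD9 call had 1.33 RPKM and 1150 bp. At MDM2 the 2 of 14 regions with gained BRD9 had medians of 1.85 RPKM and 5275 bp, against 1.35 RPKM and 1200 bp in the 10 without a BRD9 call. The width of the regions was not adjusted for in these medians.

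At the other loci the leading SMARCB1 regions were smaller. CDKN1A had its highest, 2.07 ± 0.12 RPKM, upstream of the gene at chr6:36633601-36635601, and 1.94 ± 0.10 RPKM over its start at chr6:36643626-36646677 (SD, n = 2 each). CDKN2B had 1.74 ± 0.048 RPKM over its start at chr9:22007851-22009790, where the BRD9 peaks of replicates 2 and 3 lay. CDKN1C had its highest, 1.50 ± 0.26 RPKM, at chr11:2933751-2934876, and its nearest region in both replicates, chr11:2913151-2914601, was 6.16 kb upstream of the start with 1.36 ± 0.031 RPKM (SD, n = 2 each). CCND1 had 1.85 ± 0.12 RPKM at chr11:69452926-69454313, with the control library at 1.38 RPKM, and 1.61 ± 0.021 RPKM over its start at chr11:69454572-69456333. MDM2 had its highest, 2.02 ± 0.15 RPKM, at chr12:69178926-69182026, which holds the upstream gained BRD9 region, and 1.42 ± 0.010 RPKM over its start at chr12:69200526-69203401 (SD, n = 2 each).

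All 12 gained BRD9 regions at the loci touched a SMARCB1 region, as did 95.9% of the gained regions in the genome. Of all 78 BRD9 regions at the loci 75.6% touched one, against 37.8% of the genome's BRD9 regions. By group, SMARCB1 touched 39 of the 44 regions called in SMARCB1-induced lists alone and 9 of the 21 called in GFP-induced lists alone (88.6% and 42.9%). The genome shares were 59.2% and 13.6%, so the groups differed in the same direction over the genome, and both shares were higher at these loci, with no test of that difference. SMARCB1 regions exist for SMARCB1-induced cells only, so the second count sets BRD9 in control cells against SMARCB1 positions that arise after induction.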

How the data were processed

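BRD9 and SMARCB1 CUT&RUN (Epicypher CUTANA kit, Kapa Hyper libraries) gave 1 deposited peak list per sample. Per the submitters' processing notes, BWA 0.7.12-r1039, SAMtools, bedtools, DiffBind and edgeR were used with hg19; the peak caller is not given in the sources used here. The SMARCB1 lists name hg19 and a GFP negative control; the BRD9 lists name neither, and their coordinates were read as hg19. Per the file headers, each deposited list gives raw read counts for the sample and for its control library, both also as RPKM from the authors, and a −log10 score of the false discovery rate, which ranked peaks in alternatives.

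The members and lists were chosen with earlier results of these data known. Windows were the gene interval and 50 kb on each side; overlap meant at least 1 bp. Lists were compared with exact permutation tests in Python 3.11.15 (numpy 2.4.6, pandas 2.3.3, scipy 1.17.1, and matplotlib 3.10.9 for figures). Merging, gained and lost calls, overlaps and window counts were checked on simulated lists, and the permutation tests were not. Named regions were those called in 3 of 3 lists of a group, and the densest and nearest SMARCB1 region per locus; other regions named were chosen after their values were seen. Same-numbered BRD9 lists did not deviate together (correlations 0.0105, 0.0069 and 0.0016). Alternatives were peaks at or above a list's median score, equal numbers of top peaks (35252), flanks of 10 and 100 kb, the peak's middle, calls in 2 of 3 lists, merging within 500 bp, other SMARCB1 overlaps, each replicate left out and a replicate block. No hg19 annotation was used here, so exons, introns and other pathway genes were not placed. The planned edgeR fit of BRD9 density needs regions called in all 6 lists, of which 0 of 5598 lie at these loci, so it was not run.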

Additional observations from a re-analysis of the deposited data

How the results depend on the processing

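Since no p could pass 0.05, the call taken for peak number and covered length was whether the groups overlapped. Under the alternatives 185 values kept direction and call (densities within 1 SD of the replicates, counts of regions within 1.5 times), though the size of a difference could move, 13 moved further, 4 reversed, 9 lost their separation or direction and 3 gained a separation. All 23 values for peak number and covered length at CDK6, and all 23 at MDM2, kept theirs. At CDKN2A and CDKN2B the separation was lost in 6 of 23: the difference was 0.667 peaks and 393 bp both with peaks at or above each list's median score and with equal numbers of top peaks, and 0.667 peaks and 383 bp with a flank of 10 kb. CCND1 became separated without SMARCB1 replicate 2 (-1.33 peaks, -996 bp), and CDKN1A peak number without GFP replicate 3 (-2.5 peaks). CDKN1C moved: with peaks at or above each list's median score, the difference in peak number was 0 and in covered length 61.7 bp, the sign reversed. Leaving out 1 list gave -0.83 to 0.17 peaks and -338 to 32.7 bp at CDKN1C, reversed to 0.17 peaks and 32.7 bp without GFP replicate 2 and to 30.8 bp (0 peaks) without SMARCB1 replicate 1. With a flank of 10 kb the CDKN1A difference in peak number was 0. Lost regions numbered 1, the region upstream of CDKN1C, with calls in at least 2 of 3 lists, and 0 to 1 when 1 list was left out (1 without GFP replicate 1). Over the genome lost regions numbered 6839 and 1502 to 4482 under these settings, against 1246 in the main setting. The cause was not tested.

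Leaving out 1 list gave differences of 14.5 to 18 peaks and 10280 to 13243 bp at CDK6, 2 to 3 peaks and 1923 to 2590 bp at MDM2, 1 peak and 517 to 590 bp at CDKN2A and CDKN2B, -2.5 to -1 peaks and -2102 to -1487 bp at CDKN1A, and -1.33 to -0.33 peaks and -996 to -85.5 bp at CCND1. Gained regions numbered 12 to 14 at the loci and 8442 to 11081 over the genome, against 12 and 8217 in the main setting. With the replicate block, an exact sign-flip test over same-numbered lists, the smallest possible p is 0.25, which each of the 7 separated comparisons reached. Calls in at least 2 of 3 same-numbered pairs gave 17 gained regions and 1 lost region at the loci. Over the genome this setting gave 16678 and 8013, against 8217 and 1246 in the main setting. The replicate numbers do not pair the lists by their deviations.

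SMARCB1 density in peaks at or above each list's median score was 1.60 RPKM at CDKN1A, 1.69 at CDKN2A and CDKN2B, 2.01 at CDK6 and 1.60 at MDM2. With a flank of 10 kb it was 1.67 RPKM at CDKN1A, 1.75 at CCND1 and 1.48 at MDM2. With a flank of 100 kb it was 1.62 RPKM at CDKN1A, 1.46 at CDKN1C and 1.50 at MDM2. The edgeR, DESeq2 and limma fits of BRD9 density were not run, because no region at the loci is called in all 6 lists.

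BRD9 peaks rest on as few as 9 reads, so a missing call at this depth does not show that BRD9 is absent.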
